A study of Homo sapiens with 36 samples.

Results

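The clustered protocadherin genes PCDHA, PCDHB and PCDHG were examined for binding of TET1 in HEK293T cells, an established human embryonic kidney line that carries the SV40 large T antigen. Members were the TET1 peaks overlapping chromosome 5, 140.15 to 140.90 Mb on hg19, and there were 51 such peaks of 62066 in 6 peak lists. The alpha cluster was taken as 140.16 to 140.40 Mb, the beta cluster as 140.43 to 140.63 Mb and the gamma cluster as 140.71 to 140.90 Mb. The 500 kb on either side of the locus served as background. The locus holds 53 member genes by the names used here, 15 in alpha, 16 in beta and 22 in gamma.

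Chromatin bound by TET1 was immunoprecipitated and sequenced (ChIP-seq) after transfection of a small interfering RNA (siRNA), which was siNC, siCHD3, siCHD4, siCHD5, siMBD2 or siMBD3. Since the other names carry a gene, siNC served as the control. CHD3, CHD4 and CHD5 are the ATPases with which NuRD, a chromatin-remodelling and deacetylase complex, moves nucleosomes, and MBD2 and MBD3 are alternative subunits with a methyl-CpG-binding domain. Each siRNA had 3 pull-down and 3 input libraries of this single line and 1 peak list, whose name joins the 3 replicates and which was therefore treated as a pooled call. Replicate error cannot be obtained from such a list, so the values below compare lists and carry intervals for counting error only. Levels of the targeted proteins and read totals were not analysed here.

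Clustered protocadherins are cell-surface adhesion proteins of the cadherin superfamily. A neuron uses a small, largely random choice of their promoters, and the resulting combination of proteins lets its branches recognise one another. In the alpha and gamma clusters each variable exon has its own promoter and is spliced to constant exons shared by the cluster, whereas beta genes are single-exon genes. Most of these promoters share a conserved sequence element with the core CGCT, at which the insulator protein CTCF binds, and CTCF with cohesin loops chosen promoters to distant enhancers. CTCF binding there is sensitive to DNA methylation, and TET1 is a dioxygenase that oxidises 5-methylcytosine.

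The promoter element is shown because its core is shared while the bases around it differ between clusters. All 53 genes were found in the RefSeq gene table, and 47 had promoter sequences (RefSeq, GRCh38.p14), in 52 windows of 300 bases from 250 before to 50 after a start. The first 4 genes of each cluster, in chromosome order, that hold that cluster's common word are printed 5′ to 3′ on the plus strand, 30 bases each, with the CGCT core in capitals.
PCDHA1: ggccacatgatgtCGCTgtacaccacaaag
PCDHA2: agccacatgatgtCGCTgtccaccatagag
PCDHA4: agccacatgatgtCGCTctttaccacaaaa
PCDHA5: atccacatgatgtCGCTggacaccggaagg
PCDHB2: agacgcggggtggCGCTgcagccttagaag
PCDHB3: gaacgcatggtggCGCTgttgactaagaag
PCDHB4: agacgcagggtggCGCTgcaggctaagttg
PCDHB5: ggacgcctggtggCGCTgcaggctaagagt
PCDHGA1: ggactgtgggcgcCGCTgttcactaatctg
PCDHGA2: ggcctctgagcgtCGCTgttgaccacctaa
PCDHGA3: ggcctcttagtgtCGCTgttgaccactcaa
PCDHGA4: agactctgggtgtCGCTgttcaccaatcag
On GRCh38.p14 the first of each set lies at chr5:140786089-140786118 for PCDHA1, chr5:141094547-141094576 for PCDHB2 and chr5:141330406-141330435 for PCDHGA1. Over all genes that hold their cluster's word, the core lay a median of 48 bases before the start in alpha (38 to 81), 61 in beta (-3 to 79, a negative value lying past the start) and 48 in gamma (39 to 199).

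Searched on both strands, CGCT was found in 51 of 52 protocadherin windows, against 70.0% of 35116 RefSeq promoter windows of the same length. The window of PCDHA9 was the exception. A CGCT anywhere in a window counted, so this is not a count of the conserved element. All 5 C-type windows held CGCT, and none held the longer words given next. The word ATGTCGCT was found in 9 of 11 alpha windows and in no beta or gamma window. GGTGGCGCT was found in 13 of 14 beta windows, and CGCTGTT in 14 of 22 gamma windows and in 1 beta window, that of PCDHB3. The alpha and gamma windows counted here exclude the C-type genes. The 22 gamma windows come from 18 genes, some with several starts, and 13 genes held CGCTGTT. Across all promoter windows these words were found in 0.234%, 0.501% and 2.26%. The words contain the core and were chosen after the sequences were seen, so their cluster shares are a description.

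The variable promoters of alpha, beta and PCDHGA also held few CpG, the dinucleotide that DNA methylation and TET1 act on. The median number of CG in a window was 7 in alpha (range 3 to 9), 7.5 in beta (5 to 12) and 7.5 in gamma (2 to 25), against 14 over all promoters. Within gamma, PCDHGA windows held 2 to 12, whereas PCDHGB windows held 7 to 25, some of them at or above the median of all promoters. The median share of G and C was lower too, at 36% in alpha, 40.8% in beta and 43.7% in gamma, against 58.7%. The CG numbers were not adjusted for it. The C-type genes PCDHAC1, PCDHAC2, PCDHGC3 and PCDHGC4, which are known to be used more uniformly than the variable genes, had 5 windows with a median of 23 (15 to 27). The word CCCTC, which gave CTCF its name, was found in 16 of the 52 windows, none of them in beta, against 71.2% of all promoters. A match is a run of letters and not a binding site. The peaks are on hg19 and the promoters on GRCh38.p14, so no peak was assigned to a gene or a promoter element.

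TET1 peaks were found in all 3 clusters in siNC and in siCHD5. siNC had 27 locus peaks, 5 in alpha, 11 in beta, 8 in gamma and 3 between the clusters. siCHD5 had 24, with 9 in alpha, 7 in beta, 5 in gamma and 3 between the clusters. Alpha thus held more peaks in siCHD5 than in siNC, and beta and gamma held fewer. These differences lay within counting error, and the order in beta turned when peaks of low significance were left out. With −log10 q (the peak caller's adjusted significance) of at least 10 in both lists, beta had 5 peaks in siNC and 7 in siCHD5. Alpha then had 1 and 5 peaks, and gamma 4 and 3.

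**Figure D1:**
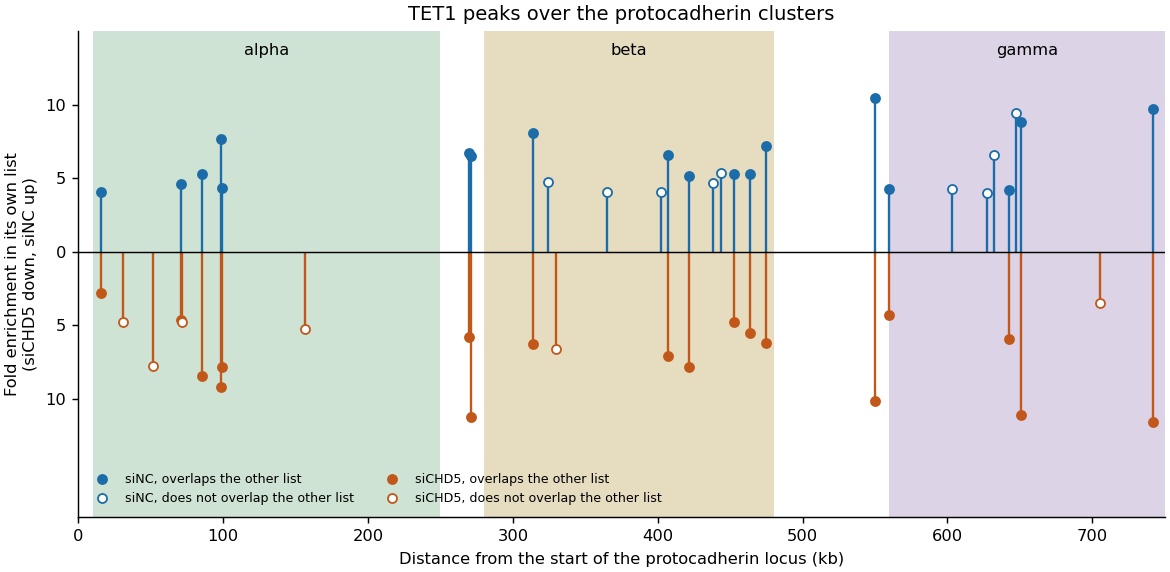
Each stem is a TET1 peak, placed by distance from the start of the locus in kb, with siNC fold enrichment upward and siCHD5 fold downward, each as the authors' value for its own list. Filled points overlap a peak of the other list, open points do not, and shading marks the clusters. Open siNC points stand in beta and gamma, and 4 of the 6 open siCHD5 points stand in alpha.

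Per length, the siNC locus held 36 peaks per Mb (95% exact Poisson interval 23.7 to 52.4), against 32.0 in the flanks (21.9 to 45.2), with 20.0 on the left and 44.0 on the right. Chromosome 5 as a whole held 8.87 per Mb (8.44 to 9.31) between its first and last siNC peak. The siCHD5 locus held 32.0 per Mb (20.5 to 47.6), its flanks 37.0 (26.1 to 51.0) and chromosome 5 10.1 (9.68 to 10.6). In both lists the protocadherin locus was denser in peaks than the chromosome and did not stand apart from its flanks. Within it, siNC densities were 20.8 per Mb in alpha (6.76 to 48.6), 55.0 in beta (27.5 to 98.4) and 42.1 in gamma (18.2 to 83.0). In siCHD5 they were 37.5 (17.1 to 71.2), 35.0 (14.1 to 72.1) and 26.3 (8.54 to 61.4). The clusters' intervals overlapped in both lists. With −log10 q of at least 10 the order of locus and flanks turned in siNC, to 17.3 per Mb in the locus and 25 in the flanks, and in siCHD5 they held 24 and 29.

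**Figure D2:**
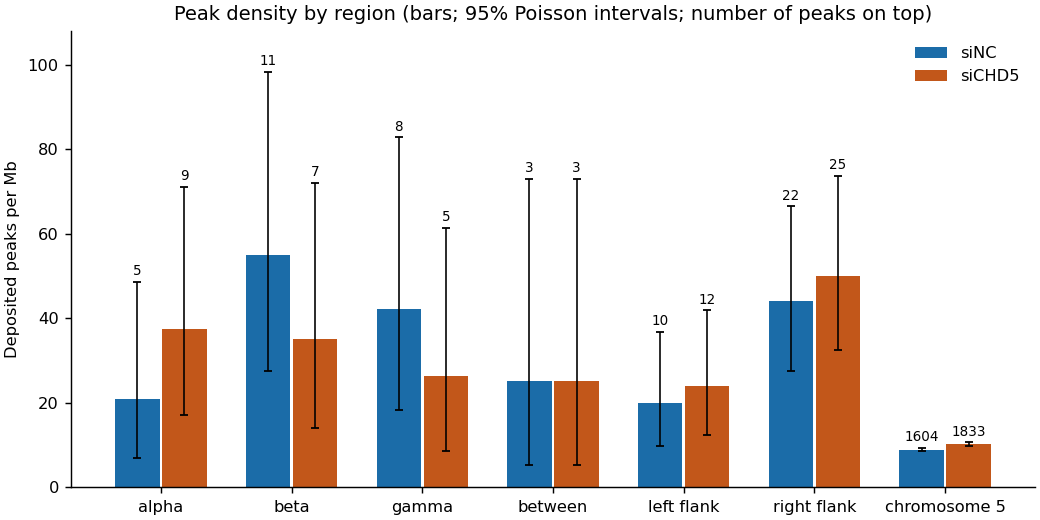
Bars give TET1 peaks per Mb by region for siNC and siCHD5, starting at 0, with exact 95% Poisson intervals that cover counting error only. Beta is the densest siNC cluster, at 55.0 per Mb, and its interval overlaps those of alpha and gamma.

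In the alpha cluster, whose variable genes PCDHA1 to PCDHA13 precede PCDHAC1 and PCDHAC2, all 5 siNC peaks were overlapped by siCHD5. The strongest, at 140248268 to 140248598, had 7.65-fold enrichment of pull-down over local control in siNC and its siCHD5 partner had 9.19-fold. A neighbour at 140249059 to 140249303, with its summit 0.725 kb away, had 4.34-fold in siNC and 7.83-fold in siCHD5. These were the only 2 siNC peaks of the cluster that stood so close, and both have a partner.

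The other alpha pairs lay upstream of these. The peak at 140235338 to 140235635 had 5.32-fold in siNC and 8.41-fold in siCHD5. That at 140220600 to 140220843 had 4.59-fold and 4.60-fold, and that at 140165624 to 140165834 had 4.08-fold and 2.81-fold. Each list has its own depth and control, so these pairs are given side by side and no change is computed from them.

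Alpha held 4 siCHD5 peaks with no siNC peak on them. The strongest, at 140201723 to 140201943, had 7.76-fold with 33 pull-down reads at its summit and lay 18656 bp from the nearest siNC peak. The peak at 140306046 to 140306343 (5.26-fold, 19 reads) lay 56742 bp away, in the later part of the cluster where siNC had none. That at 140180485 to 140180767 had 4.73-fold, as did that at 140221252 to 140221496, which lay 408 bp from a siNC peak. Of the 9 siCHD5 alpha peaks, 5 were overlapped by siNC, or 55.6% (exact Clopper-Pearson 95% interval 21.2 to 86.3). In the whole siCHD5 list 74.5% were, inside that interval. With −log10 q of at least 10 in both lists, siNC overlapped 20.0% of the 5 siCHD5 alpha peaks left. Only 1 siNC alpha peak was left at that threshold, which bounds this share, and no whole-list share at it is given here.

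The beta cluster, of PCDHB1 to PCDHB16, had 11 siNC peaks between 4.08-fold and 8.09-fold. The strongest, at 140464021 to 140464301, had 8.09-fold in siNC, and its siCHD5 partner 6.26-fold. The peak at 140624664 to 140625067, near the end of the cluster, had 7.20-fold in siNC and 6.18-fold in siCHD5. A peak at 140557215 to 140557480 had 6.58-fold and 7.10-fold. The remaining beta pairs lay at 140571643 to 140571929 (5.15-fold and 7.79-fold), 140602657 to 140602925 (5.31-fold and 4.73-fold) and 140613760 to 140613979 (5.31-fold and 5.54-fold).

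siCHD5 had no peak on 5 of the 11 beta peaks of siNC. In the whole siNC list 85.4% of peaks were overlapped, above the beta interval of 23.4 to 83.3% around 54.5%. The 5 lay at 140593342 to 140593595 (5.36-fold, 27 reads), 140474056 to 140474314 (4.78-fold, 24 reads), 140588103 to 140588337 (4.68-fold, 21 reads), 140552041 to 140552246 (4.09-fold, 29 reads) and 140514637 to 140514848 (4.08-fold, 16 reads). The nearest siCHD5 peak was between 5011 and 34506 bp away. With −log10 q of at least 10 in both lists, siCHD5 overlapped 80% of the 5 siNC beta peaks left. No whole-list share at that threshold is given here. In the other direction, a single siCHD5 beta peak had no siNC partner, at 140479891 to 140480130 (6.58-fold, 28 reads).

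The gamma cluster, with the variable PCDHGA and PCDHGB genes followed by PCDHGC3 to PCDHGC5, held the deepest peak of the locus. At 140800346 to 140800738, 64 pull-down reads stood over a control background of 6.34 reads in siNC, which gave 8.86-fold and a −log10 q of 37.6. Its siCHD5 partner had 84 reads, 11.1-fold and a −log10 q of 57.2. The peak at 140891871 to 140892270, close to the end of the cluster, had 9.72-fold with 33 reads in siNC and 11.6-fold with 43 reads in siCHD5. The other gamma pairs were weaker, at 140792398 to 140792637 (4.21-fold and 5.89-fold) and 140709840 to 140710052 (4.29-fold and 4.26-fold). The last of these straddles the start of the cluster as it was bounded here.

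siCHD5 had no peak on 4 of the 8 gamma peaks of siNC, so 50.0% were overlapped (15.7 to 84.3), against 85.4% of the whole siNC list. The strongest of them was at 140797009 to 140797360, with 9.44-fold and 32 pull-down reads over a control background of 2.50 reads. It lay 2995 bp from the siCHD5 peak that overlaps the deepest gamma peak. The others had 6.58-fold (140782151 to 140782452, 22 reads), 4.26-fold (140753343 to 140753552, 19 reads) and 4.0-fold (140777357 to 140777646, 13 reads). One siCHD5 gamma peak had no siNC partner, at 140855304 to 140855536 (3.49-fold, 15 reads).

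Between the clusters siNC had 3 peaks, and siCHD5 overlapped all 3. The highest fold of the siNC locus was among them, 10.5-fold at 140699768 to 140700101 between beta and gamma, with 10.1-fold in siCHD5. In the RefSeq gene order SLC25A2, a mitochondrial carrier, and TAF7, a subunit of the general transcription factor TFIID, stand between PCDHB15 and PCDHGA1. A pair of peaks between alpha and beta lay at 140419847 to 140420051 (6.76-fold and 5.77-fold) and 140420806 to 140421050 (6.52-fold and 11.2-fold). An enhancer of the alpha genes is known to lie beyond PCDHAC2, but neither peak was placed on it or on any other element here.

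Over the locus, siCHD5 overlapped 18 of 27 siNC peaks by at least 1 bp, or 66.7% (46.0 to 83.5). In the whole siNC list 85.4% were overlapped, above that interval, and on chromosome 5 83.7%. In the flanks 30 of 32 were, or 93.8% (79.2 to 99.2), and the 2 without a partner had 3.12-fold and 2.93-fold. By cluster the share was 5 of 5 in alpha (47.8 to 100%), 6 of 11 in beta (54.5%, 23.4 to 83.3) and 4 of 8 in gamma (50.0%, 15.7 to 84.3). All 9 siNC locus peaks without a partner thus lay in beta or gamma, where 10 of 19 had one (52.6%, 28.9 to 75.6). Joining beta and gamma rests on these same peaks, and the joint interval overlaps that of alpha. With −log10 q of at least 10 in both lists, siCHD5 overlapped 76.9% of the 13 siNC locus peaks left. By cluster this was 100% of 1 peak in alpha, 80% of 5 in beta and 50% of 4 in gamma. From the siCHD5 side, without that threshold, 18 of 24 locus peaks were overlapped by siNC, or 75% (53.3 to 90.2), close to 74.5% of the whole siCHD5 list. Where a pair was shared its summits lay a median of 11.5 bp apart over the 18 pairs (2 to 44 bp). In gamma they were 3 to 5 bp apart. The flanks had a median of 7.5 bp over 30 pairs (1 to 430 bp). Pairs were picked by overlap, which by itself favours close summits.

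In the whole lists, peaks of low fold were overlapped less often than peaks of high fold. Of the siNC locus peaks 11 of 27 were below 5-fold (40.7%, 22.4 to 61.2), against 25.4% of the whole list. Of the siCHD5 locus peaks 7 of 24 were (29.2%, 12.6 to 51.1), against 26.3%. Both list shares lay inside these intervals. The bands of fold used next were chosen after the data were seen. Below 5-fold, siCHD5 overlapped 5 of 11 locus peaks (16.7 to 76.6%), against 60.0% of all siNC peaks in that band. From 5-fold to below 7-fold it overlapped 7 of 9 (40.0 to 97.2%), against 87.5%. At 7-fold or more it overlapped 6 of 7 (42.1 to 99.6%), against 97.9%. Each list share lay inside the locus interval of its band. The only locus peak of 7-fold or more without a partner was the 9.44-fold gamma peak. Below 5-fold the alpha cluster had 3 of 3 overlapped, beta 0 of 4 and gamma 2 of 4. In siCHD5 the bands gave 4 of 7, 5 of 7 and 9 of 10 locus peaks overlapped by siNC, against 40.2%, 72.7% and 93.8% of the list. The intervals were 18.4 to 90.1%, 29.0 to 96.3% and 55.5 to 99.7%, and again held the list shares. The part of fold in the locus share was not tested.

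Median fold enrichment in the locus was below that of the list as a whole and of the right flank. In siNC the left flank, with a median of 5.49-fold, was close to the locus, and the right flank had 8.24-fold. The siNC median was 5.31-fold over the locus, 7.09-fold over the flanks and 6.72-fold over the list, and 8 of 27 locus peaks stood above the list's median, against 3 of 10 on the left and 17 of 22 on the right. By cluster the siNC medians were 4.59-fold in alpha, 5.31-fold in beta and 5.43-fold in gamma. In siCHD5 they were 5.26-fold, 6.26-fold and 5.89-fold, with 6.22-fold over the locus, 6.97-fold on the left, 8.14-fold on the right and 6.90-fold over the list. There 10 of 24 locus peaks and 19 of 37 flank peaks stood above the list's median.

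**Figure D3:**
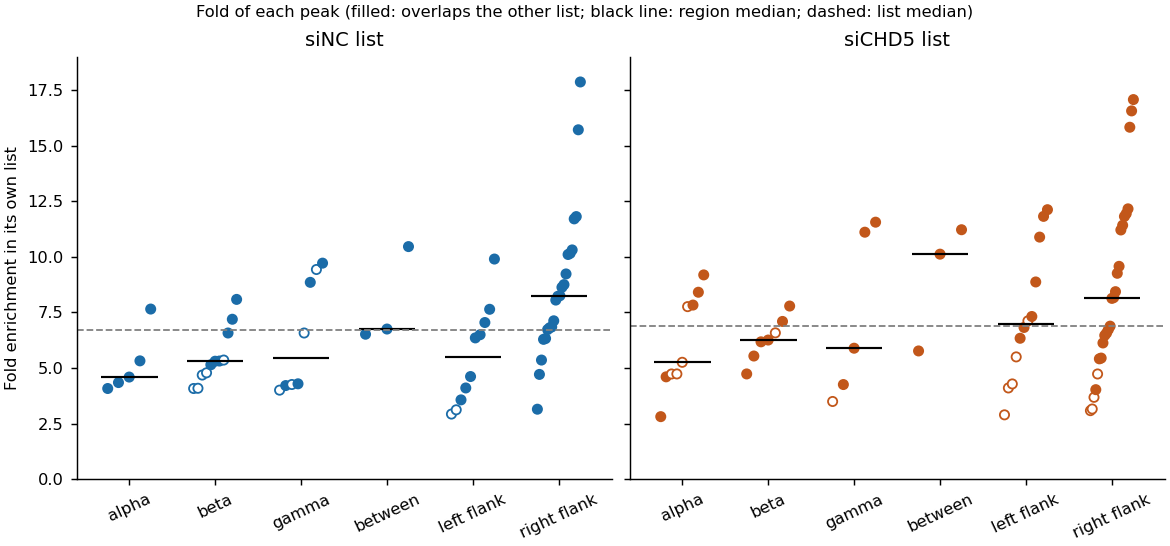
Points are single TET1 peaks by region and list, on the authors' fold enrichment scale within each list. Alpha, beta and gamma peaks of siNC have medians of 4.59-fold, 5.31-fold and 5.43-fold, below the 8.24-fold of the right flank and near the 5.49-fold of the left, and the ranges overlap.

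Locus peaks were also narrower than flank peaks and rested on fewer reads, and the list's median width lay between. The median siNC width was 259 bp in the locus, 353 bp in the flanks and 300 bp over the list. The median number of pull-down reads at the summit was 24 (13 to 64) in the locus and 40 in the flanks. In siCHD5 the widths were 272 and 335 bp and the reads 31 (15 to 84) and 42. The control background at locus summits was 2.50 to 6.34 reads in siNC and 2.80 to 6.65 in siCHD5. This background is the level that fold and p-value imply, not a count of reads at the site. Its lowest siNC value recurred, and was also the median over the siNC gamma peaks. The 9.44-fold and 9.72-fold siNC gamma peaks and the 11.6-fold siCHD5 gamma peak rest on the lowest value of their list's locus peaks. Reads at a summit were recovered from the deposited fold and p-value, within 0.02 on −log10 p for all 59 siNC and 61 siCHD5 peaks of the locus and its flanks.

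The median distance between neighbouring summits was above 10 kb in every cluster of both lists. In siNC it was 13.9 kb in alpha (0.725 to 55.0 kb, 4 gaps), 11.0 kb in beta (5.20 to 40.6 kb, 10 gaps) and 10.2 kb in gamma (3.39 to 91.5 kb, 7 gaps). In siCHD5 it was 14.5 kb in alpha (0.654 to 57.1 kb, 8 gaps), 15.2 kb in beta (11.0 to 77.4 kb, 6 gaps) and 45.8 kb in gamma (8.03 to 82.6 kb, 4 gaps). The flanks had median spacings of 8.63 kb (left) and 11.8 kb (right) in siNC and 5.91 and 13.5 kb in siCHD5. The ranges of cluster and flank overlapped. In a region of fixed length fewer peaks stand farther apart, so these spacings are not independent of the peak counts. Beta had 3 gaps below 10 kb in siNC and 0 in siCHD5.

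Some long stretches held no summit. In siNC the longest ran 170.8 kb from the last alpha peak, at 140249165, to the first peak past the cluster, at 140419948. In siCHD5 the peak at 140306046 to 140306343 broke that stretch, and 113.7 kb remained. Within gamma siNC had a stretch of 91.5 kb, from 140800549 to 140892074, in which siCHD5 had the peak at 140855304 to 140855536. siCHD5 had stretches of 82.6 kb in gamma, from 140709943 to 140792515, and of 77.4 kb in beta, from 140479995 to 140557387. In siNC 2 to 3 peaks stood inside each of these siCHD5 stretches: 140753343 to 140753552, 140777357 to 140777646 and 140782151 to 140782452 in gamma, and 140514637 to 140514848 and 140552041 to 140552246 in beta.

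**Figure D4:**
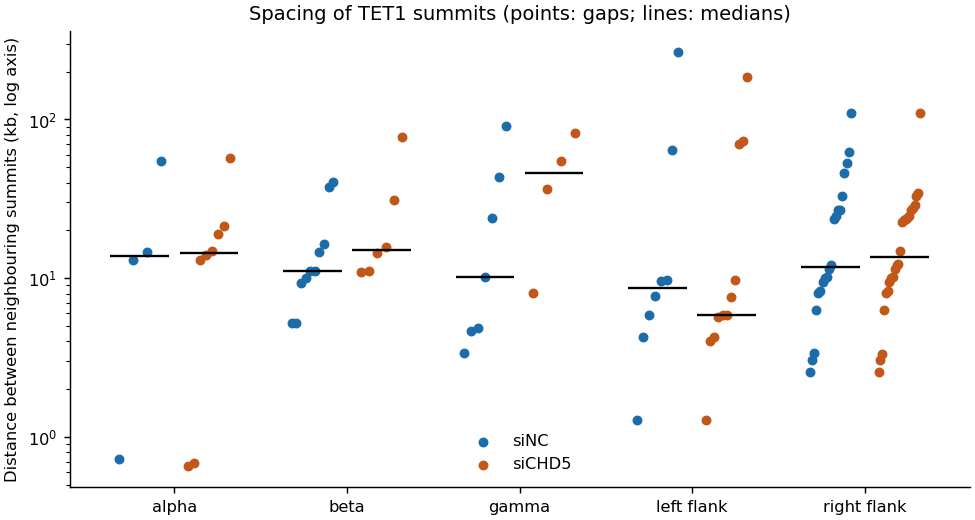
Points are distances in kb between neighbouring peak summits within each region, on a log axis, for siNC and siCHD5. Gamma has a median of 10.2 kb over 7 gaps in siNC and 45.8 kb over 4 gaps in siCHD5, with overlapping ranges. Spacing depends on the number of peaks, which is 8 in siNC and 5 in siCHD5.

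siCHD3, siCHD4, siMBD2 and siMBD3 had no peak in the protocadherin locus or in either flank. With the limit that a count of 0 allows set at 3 counts, the locus could hold a share of up to 0.838% of the 358 siMBD2 peaks, 1.16% of the 259 siMBD3 peaks, 2.14% of the 140 siCHD3 peaks and 2.73% of the 110 siCHD4 peaks. Of the whole siNC list, siCHD3 overlapped 0.179%, siCHD4 0.169%, siMBD2 0.250% and siMBD3 0.176%, and of its 27 locus peaks each overlapped 0. When siNC was limited to the same number of peaks by −log10 q, it too had 0 in the locus and its flanks for each of the 4 lengths. The best siNC locus peak, at 140800346 to 140800738, ranked 3424 by −log10 q in its list. The 0 of the shortened siNC lists was thus fixed in advance. They keep only peaks with −log10 q of at least 72.0 to 99.0, and the best locus peak had 37.6. The 4 short lists themselves reach down to −log10 q of 1.31 to 1.60, so equal length is not an equal threshold. Whether these lists differ from siNC at the protocadherin genes, apart from their length, cannot be told from these counts. Their nearest peaks on chromosome 5 were 58.1 Mb from the locus for siCHD3, 26.3 Mb for siMBD2 and 6.29 Mb for siMBD3, and siCHD4 had none on the chromosome.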

How the data were processed

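TET1 was measured by ChIP-seq in 36 HEK293T libraries, 18 pull-down and 18 input, 3 of each per siRNA. Per the submitters' processing notes, the tools were MACS2 2.1.2, Bowtie2 2.3.4, deepTools 3.5.0, bedtools 2.25.0, SAMtools 1.9 and FastQC 0.11.7, with hg19. Their order and roles are not stated there. How duplicates and reads mapping to several places were handled, and the peak-calling settings, are not given in the sources used here. Protocadherin genes resemble one another, so reads mapping to several places bear on them. The 6 deposited lists carry replicates 1 to 3 in their names and were taken as pooled.

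Fold enrichment, as deposited, is the authors' ratio of pull-down reads over control background at a summit. Significance was deposited for the same summit as −log10 p-values and as −log10 q-values. The deposited score is the −log10 q-value times 10, truncated to a whole number. It was not used further. Coordinates are counted from 1. Library read totals were not analysed here.

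Peaks were assigned to a region by an overlap of at least 1 bp, also between lists, with Python 3.11.15, pandas 2.3.3 and SciPy 1.17.1. A peak spanning a bound counted in the cluster. Summit reads were recovered from fold and −log10 p with a pseudocount of 1. Shares have exact Clopper-Pearson intervals and counts exact Poisson intervals, at 95%, for counting error only. With 1 list per group no test between conditions was made. The overlap between lists, the placement in a region and the recovery of summit reads were tested on simulated data.

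The members, bounds and regions were chosen with earlier results of these data known. In siNC and siCHD5 the 5 peaks of highest fold per cluster were named, with up to 5 per cluster absent from the other list. Remaining pairs were added after their values were seen. For the flanks the 2 highest on each side were named. Alternatives were stricter thresholds on −log10 q (10) and fold (4), other overlap and placement rules, clusters extended by 10 kb, flanks of 1 Mb, and siNC shortened to the length of each of the 4 short lists.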

Additional observations from a re-analysis of the deposited data

How the results depend on the processing

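Of 166 alternative values for 40 results, 140 stayed within the interval or factor set for them and 26 moved. Part of the 140 could not move, so their number does not measure stability. A count or share of 0 for a short list stays 0 under a stricter rule. In the locus every peak was already a distinct interval. With −log10 q of at least 10, siNC peaks numbered 13 in the locus (17.3 per Mb), 1 in alpha, 5 in beta and 4 in gamma. siCHD5 then had 5 in alpha and 3 in gamma, and 20.0% of its 5 alpha peaks were overlapped by siNC. Limited by −log10 q to as many peaks as siCHD3, siCHD4, siMBD2 or siMBD3, siNC had 0 in the locus, 0 in alpha, 0 in beta and 0 in gamma for each length. At 4-fold or more, siNC overlapped 100% of 4 siCHD5 gamma peaks, and the siCHD5 gamma spacing was 82.6 kb over 3 gaps. These settings leave fewer peaks by construction, and no whole-list share at them is given here. No value moved with distinct intervals, overlap of 50% of the peak, summit or centre placement, clusters extended by 10 kb, or flanks of 1 Mb. Shortening siNC to the length of siCHD5 was not run, since siCHD5 is the longer list. No paired analysis was possible because the lists pool the replicates and carry no replicate columns, and leaving out a replicate was not possible for the same reason. Cluster counts of 5 to 11 peaks limit every comparison made here.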

Other observations

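The peaks of highest fold around the protocadherin locus lay in its right flank in both lists. There, where DIAPH1 and HDAC3 follow PCDHGC5 in the RefSeq gene order, the highest siNC peak was at 140904272 to 140904751 with 17.9-fold, and 16.6-fold in siCHD5. The next was at 141258415 to 141259107 with 15.7-fold and 15.8-fold. On the left, 139742774 to 139743168 had 9.91-fold and 11.8-fold, and 139752512 to 139752887 had 7.64-fold and 8.87-fold. Among siCHD5 flank peaks, 140099776 to 140100099 had 12.1-fold and its siNC partner 6.36-fold, and 141193558 to 141194035 had 17.1-fold and 11.7-fold. All 22 right-flank siNC peaks were overlapped by siCHD5, and 8 of 10 on the left.

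Some protocadherin promoters share long runs of letters. The windows of PCDHGB4 and PCDHGB5, and those of PCDHB8 and PCDHB13, each share a run of at least 50 bases. Reads from such stretches can map to more than 1 gene, and how the authors placed such reads was not given in the sources used here.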
